A study of Mus musculus with 4 samples.

Results

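The heat shock chaperones described here are 10 named genes, Hspa1a, Hspa1b, Hsp90aa1, Hsph1, Dnajb1, Hspb1, Hspa8, Hsp90ab1, Hspd1 and Hspe1, taken by gene symbol from arrays of sorted mouse bone marrow cells. Of these, 9 genes were found, with 14 probes among 55681, and 24287 genes had a symbol in all. No probe used here carried the symbol Hspa1b. RNA came from 4 groups with 1 array each, SFRP5 CLP, WT CLP, SFRP5 LSK and WT LSK, which are freshly isolated adult marrow cells of SFRP5-transgenic mice or of their wild-type (WT) littermates. LSK cells, sorted as lineage-negative, c-kit high and Sca-1 positive, hold the stem cells and multipotent progenitors, and the CLP sort, lineage-negative with low c-kit and low Sca-1 and positive for IL7Rα, is enriched for common lymphoid progenitors. The transgene adds SFRP5, a secreted protein that binds Wnt ligands, and the series asked which genes it affects. The transgene's promoter and the number of mice behind a sample are not stated in the sources used here.

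Chaperones bind unfolded proteins and let them fold. When proteins unfold, the transcription factor HSF1 is released from chaperones, binds heat shock elements (inverted repeats of the letters GAA) and switches on inducible genes. Hspa1a, Hspa1b, Dnajb1, Hspb1, Hsph1 and Hsp90aa1 are known as inducible, whereas Hspa8, Hsp90ab1 and the mitochondrial pair Hspd1 and Hspe1 are made at high level in unstressed cells, although the pair also responds to heat. In blood stem cells and progenitors, protein folding is known to be closely controlled. The sorting into inducible and constitutive members follows this background, not the values.

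A signal below is a log2 level with the array's 75th percentile set to 0, and each difference is that of 2 such levels. With 1 array per group no difference has a replicate check and none was tested, so "higher" and "lower" describe these 4 arrays. The only measured spread is the SD between replicate spots of other probes nearest in signal on the same arrays. It is given as the spot SD of a difference. It covers neither mice, cells nor amplification. The brightest replicated probe of an array stood at 6.19 to 6.6, so for brighter members the spot SD comes from dimmer probes. Fewer cells of a type and less RNA per cell cannot be told apart in such sorted populations.

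From 65.3% to 70.1% of probes were well above background on an array. Of the 4 sort genes Kit stood at 3.47 in SFRP5 CLP, 2.75 in WT CLP, 5.18 in SFRP5 LSK and 5.08 in WT LSK, and Il7r at 3.13, 2.52, 0.89 and -0.51 in the same order. Ly6a, which encodes Sca-1, stood at -0.70, -0.84, 1.02 and 1.35. These 3 lay on the side that the sorts select. Flt3, which common lymphoid progenitors are known to express, stood at 0.32, 0.24, 3.10 and 2.95 on its brightest probe. On that probe it was lower in CLP than in LSK by more than 4-fold in both genotypes. Over its 3 probes the difference ran from -2.78 to -1.51 in SFRP5 and from -2.71 to -2.44 in WT. All 7 erythroid genes measured in both sorts were at least 2-fold higher in CLP than in LSK in either genotype. Over all genes 11.5% were so in SFRP5 and 17.8% in WT. Xist was above background on 2 of the 2 SFRP5 arrays and 0 of the 2 WT arrays, and 4 of 4 Y-linked genes were lower in SFRP5 than in WT in both sorts, so sex-linked expression and genotype cannot be told apart.

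Of the 14 chaperone probes, 13 were well above background on all 4 arrays, as flagged by the scanner software, covering 8 genes: 4 of the 6 inducible and 4 of the 4 constitutive. The exception was Hspb1, the small heat shock protein HSP25, whose only probe stood at -7.16 in SFRP5 CLP, -7.03 in WT CLP, -7.07 in SFRP5 LSK and -5.79 in WT LSK and passed the flag on 0 arrays. No difference is given for it. The lowest signals that passed the flag lay between -5.74 and -5.07 on these arrays. The 12 other probes that passed, apart from that of Hspa1a, stood between 0.14 and 7.50. No member spot had an outlier flag.

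**Figure D1:**
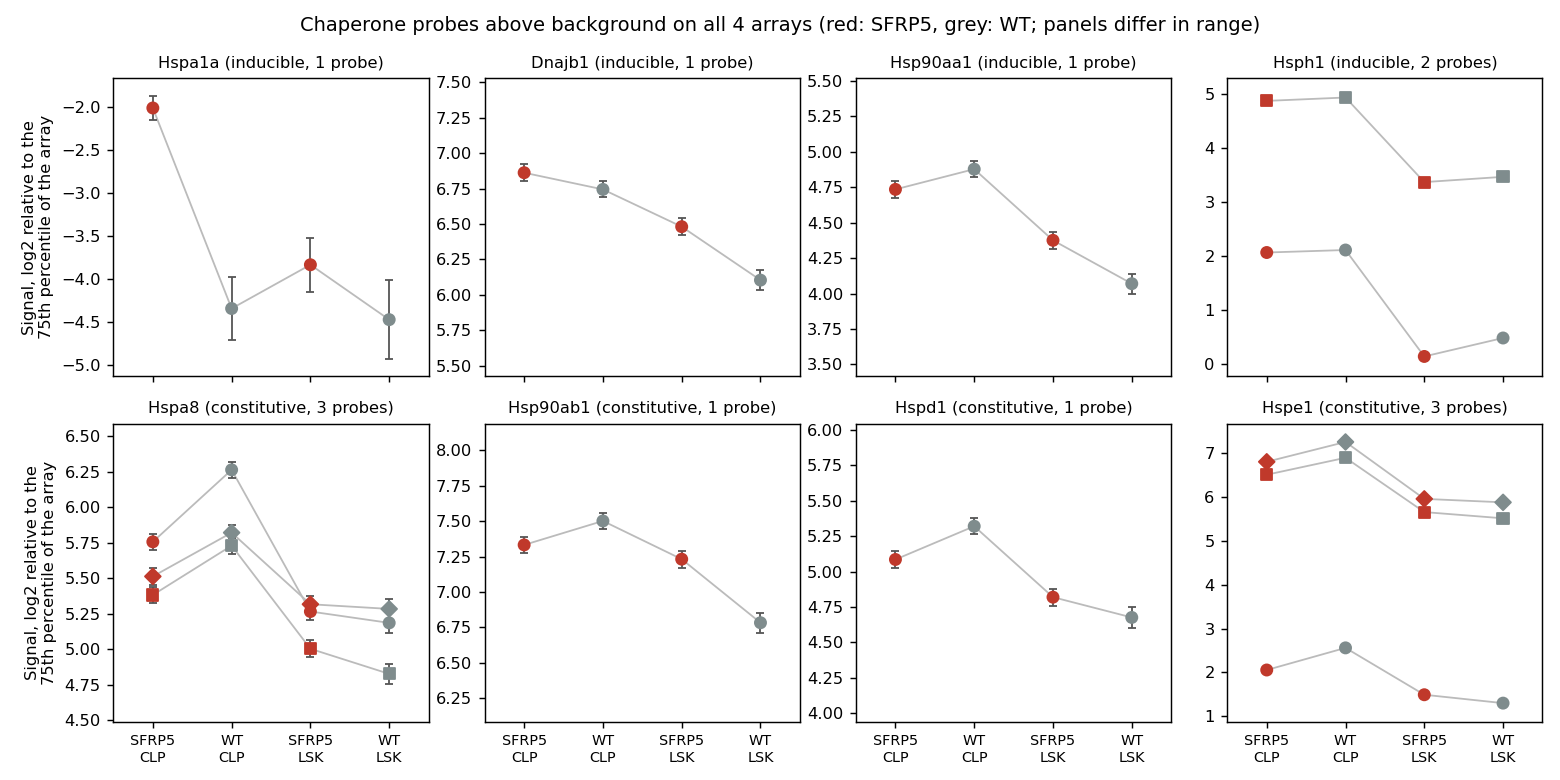
Signal of the 13 chaperone probes above background on all 4 arrays, as a log2 level with the array's 75th percentile at 0 (vertical axis), by array (horizontal axis; SFRP5 red, WT grey; 1 array per group). Bars are the SD between replicate spots of other probes nearest in signal, which are dimmer for the brightest members. Marker shapes separate probes of a gene, and lines join 1 probe's values with no order implied. Hspa1a stands apart on the SFRP5 CLP array at -2.01, and both Hsph1 probes are higher on the CLP arrays.

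Between genotypes, Hspa1a was the member with the largest difference, and it was higher in SFRP5 in both sorts. It encodes the inducible Hsp70, which binds unfolded stretches of proteins and is the classic marker of the heat shock response. Its probe stood at -2.01 in SFRP5 CLP, -4.34 in WT CLP, -3.83 in SFRP5 LSK and -4.47 in WT LSK. In processed intensity these are 72.4, 11.2, 19.5 and 12.5 units, so only the SFRP5 CLP array stood clear of the others. The difference was 2.34 in CLP (5.05-fold, spot SD 0.39) and 0.64 in LSK (1.56-fold, spot SD 0.56). Thus the CLP difference is several times the spot SD and the LSK difference is close to it. The CLP difference exceeded that in LSK by 1.70 (0.46 with normexp), a contrast of single arrays that was not tested.

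The Hspa1a value rests on 1 dim probe, and its size depended on the processing. Median spot signals corrected by normexp with an offset of 50 units, in place of the processed signals, gave 0.61 in CLP and 0.15 in LSK. The offset exceeds the probe's processed intensity on every array but SFRP5 CLP (72.4 units). Which of these changes lowered the value was not tested. In the other alternatives the CLP value ran from 2.34 to 2.43, and the LSK value was past 2-fold with quantile normalization and with cyclic loess (1.13). Hspa1a has a near-identical neighbour, Hspa1b, and whether the probe tells them apart was not tested. The likeness of the pair extends to their promoters. In the RefSeq windows of 300 bases (250 before and 50 after the start of transcription, build GRCm38.p6) the 2 sequences are 98.7% identical, and both are shown with the 4 differing bases in capitals. The Hspa1a window is chr17:34972107-34972406 and the Hspa1b window chr17:34959189-34959488, both on the minus strand.
Hspa1a: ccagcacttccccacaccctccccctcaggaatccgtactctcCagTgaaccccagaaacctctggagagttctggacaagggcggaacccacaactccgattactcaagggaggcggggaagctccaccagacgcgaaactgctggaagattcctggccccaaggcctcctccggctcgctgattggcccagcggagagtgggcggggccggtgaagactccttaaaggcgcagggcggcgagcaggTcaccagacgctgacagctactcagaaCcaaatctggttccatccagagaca
Hspa1b: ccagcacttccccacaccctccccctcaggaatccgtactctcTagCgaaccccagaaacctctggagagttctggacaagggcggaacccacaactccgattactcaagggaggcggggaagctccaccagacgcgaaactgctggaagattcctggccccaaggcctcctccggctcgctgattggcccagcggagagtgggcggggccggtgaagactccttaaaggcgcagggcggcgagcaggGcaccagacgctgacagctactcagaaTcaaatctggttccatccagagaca

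The other inducible members differed by less than 2-fold between genotypes. Dnajb1, the Hsp40 that hands clients to Hsp70 and stimulates its ATPase, stood at 6.86 in SFRP5 CLP, 6.74 in WT CLP, 6.48 in SFRP5 LSK and 6.10 in WT LSK. It was higher in SFRP5 by 0.12 in CLP (spot SD 0.081, 0.12 to 0.34 over the alternatives) and by 0.38 in LSK (spot SD 0.093, 0.15 to 0.38). The CLP value was the larger of the 2 with quantile normalization and with cyclic loess. Hsp90aa1, the inducible cytosolic Hsp90, stood at 4.73, 4.88, 4.38 and 4.07 in the same order. Its difference was -0.14 in CLP and 0.31 in LSK, with opposite signs. The CLP sign turned in 2 of 6 alternatives, with a range from -0.14 to 0.05. Hsph1, the Hsp110 that exchanges the nucleotide of Hsp70, had 2 probes, at -0.05 and -0.06 in CLP and at -0.34 and -0.10 in LSK, all below 0, although the CLP value of the gene was above 0 in 4 of 6 alternatives (up to 0.12).

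The constitutive members were lower in SFRP5 CLP than in WT CLP, by small amounts, except that Hsp90ab1 was higher with quantile normalization (0.088) and cyclic loess (0.052). Hspa8, Hspe1 and Hspd1 stayed below 0 in all 6 alternatives, the values nearest to 0 being -0.26, -0.22 and -0.038 in that order. Hspa8, the everyday cytosolic Hsc70, stood at 5.76 in SFRP5 CLP, 6.26 in WT CLP, 5.27 in SFRP5 LSK and 5.19 in WT LSK on its brightest probe, highest in WT CLP. It had CLP differences of -0.51, -0.35 and -0.31 over its 3 probes. Hspe1, the mitochondrial Hsp10, had -0.51, -0.39 and -0.45 over its 3 probes. Hspd1, the Hsp60 ring that Hsp10 caps, had -0.23. Hsp90ab1, the main cytosolic Hsp90, stood at 7.33, 7.50, 7.23 and 6.78 in the order given for Hspa8 and had a CLP difference of -0.17, so that WT LSK was its lowest array. Each of the 8 probes was below 0 by more than its spot SD, which was from 0.078 to 0.081. For the brightest, such as that of Hsp90ab1, the spot SD comes from dimmer probes. Their brightest probes gave a median of -0.34, against -0.038 over all 15945 genes measured in CLP and -0.15 over 1377 bright genes, those with a level of 4 or more on both arrays. Relative to the bright genes the median was -0.20, and from -0.21 to -0.10 over the alternatives.

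In LSK the constitutive members lay near other bright genes. The differences were 0.45 for Hsp90ab1, 0.14 for Hspd1, 0.08, 0.18 and 0.03 for the Hspa8 probes, and 0.19, 0.14 and 0.08 for the Hspe1 probes. The median of the 4 brightest probes was 0.11, against 0.14 over 1080 bright genes and 0.022 over all 16130 genes measured in LSK. It was -0.017 in the authors' deposited signal table, -0.063 with quantile normalization and -0.10 with cyclic loess, so no direction holds for it, nor for Hspa8, Hspe1 and Hspd1 singly, whereas Hsp90ab1 was above 0 in all 6 alternatives. Relative to the bright genes it was -0.03, and from -0.07 to -0.02 over the alternatives. The inducible median was 0.34 in LSK and 0.03 in CLP, or 0.20 (0.07 to 0.21 over the alternatives) and 0.17 (0.15 to 0.19) above the bright genes. It includes Hspa1a, which lay below the bright level of 4 in both sorts. In LSK 5 of 8 neutrophil and myeloid markers were at least 2-fold higher in SFRP5 (median 1.40), against 6.57% of all genes, with sums of 82.1 in SFRP5 LSK and 56.7 in WT LSK in multiples of the 75th percentile intensity, all 8 being above background. Their part in the chaperone values was not tested.

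**Figure D2:**
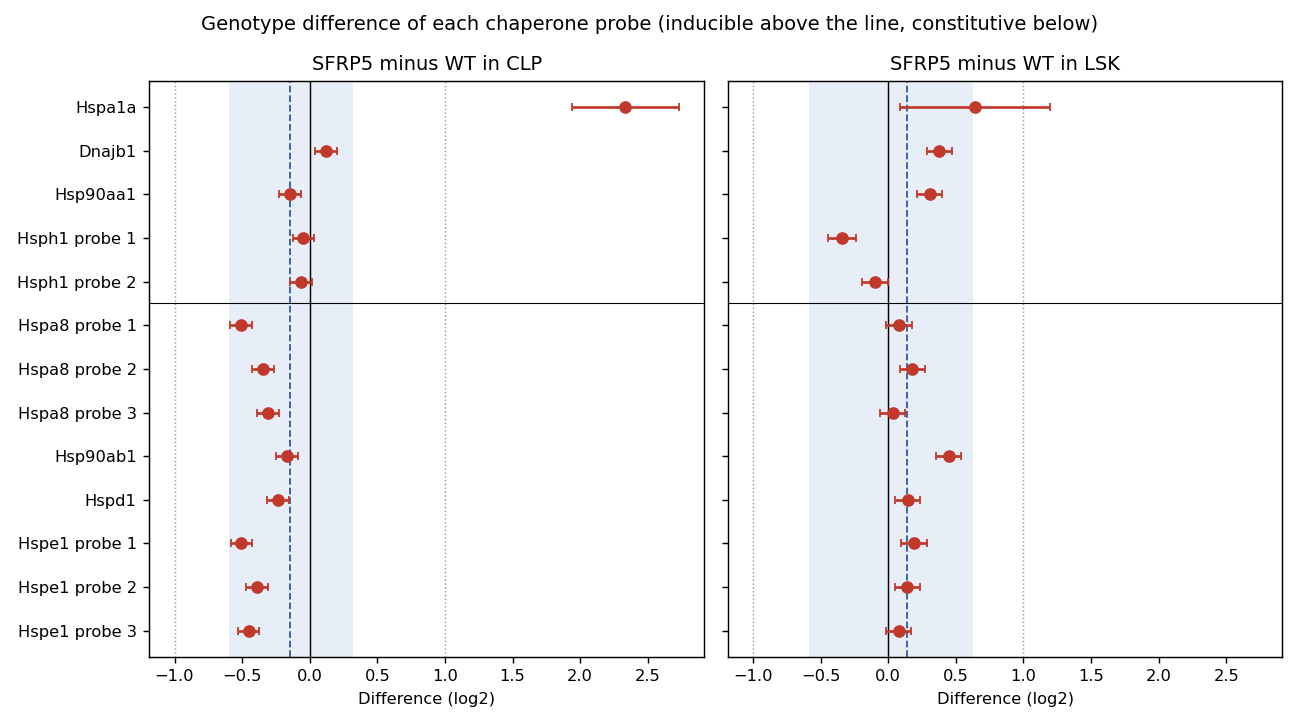
Difference SFRP5 minus WT (log2, horizontal axis) of each chaperone probe in CLP (left) and LSK (right). Bars are the spot SD of the difference, the shaded band holds the 5th to 95th percentile of bright genes with their median dashed, and dotted lines mark 2-fold. Only Hspa1a in CLP, at 2.34, lies beyond 2-fold. The 8 constitutive probes lie below 0 in CLP under this scaling, but Hsp90ab1 lies above 0 with quantile normalization and cyclic loess.

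Counted at 2-fold, 1 of the 8 genes measured was higher in SFRP5 CLP (Hspa1a) and 0 were lower, while 4.25% of all genes measured passed 2-fold upwards and 4.31% downwards. In LSK 0 of 8 were higher and 0 lower, against 6.57% and 7.17% of all genes. Counts of 0 and 1 among 8 genes show no departure from this background. The difference between the genotype differences, CLP minus LSK, was below 0 for 6 of the 8 genes and from -0.62 for Hsp90ab1 to 1.70 for Hspa1a. It was -0.59 for Hspa8, -0.53 for Hspe1, -0.45 for Hsp90aa1, -0.38 for Hspd1, -0.26 for Dnajb1 and 0.04 for Hsph1 (brightest probes). Over the 1009 bright genes on all 4 arrays it had a median of -0.23, with 67.1% below 0, so the sign was also the commoner one among bright genes. The sizes depended on the scaling. With quantile normalization 4 of 8 were below 0, with 0.12 for Dnajb1 and 0.028 for Hspd1, and with cyclic loess 5 of 8, with 0.17 for Dnajb1 and -0.11 for Hspe1.

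Markers of blood lineages differed between the CLP arrays as well. All 8 erythroid genes were lower in SFRP5 CLP (median -0.73), with a summed signal of 376 times the 75th percentile in SFRP5 CLP and 648 in WT CLP. All 6 mast cell and basophil genes were lower (median -0.46), with sums of 39.0 in SFRP5 CLP and 55.5 in WT CLP. All 8 B lineage genes were higher on their brightest probe (median 0.41), with sums of 252 in SFRP5 CLP and 187 in WT CLP. The further Cd79a probe was lower (-0.25). Most of both sums is Dntt, at 7.25 in SFRP5 CLP and 6.68 in WT CLP. Dntt was also bright in LSK, at 6.82 in SFRP5 and 6.09 in WT, so it is not particular to the CLP sort. No member of these 3 lists was below background on either CLP array. Their part in the lower constitutive chaperone signals was not tested.

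Between sorts, the chaperones measured were higher in CLP than in LSK, in 8 of 8 genes in SFRP5 and 8 of 8 in WT, with exceptions under other scalings for Hsp90ab1 in SFRP5 and for Dnajb1 and Hspa1a in WT. Hsph1 had the largest difference in WT. Its brighter probe stood at 4.87 in SFRP5 CLP against 3.36 in SFRP5 LSK, and at 4.93 in WT CLP against 3.46 in WT LSK. The differences were 1.50 (2.83-fold) in SFRP5 and 1.47 (2.77-fold) in WT, and 1.92 and 1.63 for its other probe, with spot SDs from 0.084 to 0.091. The 2 CLP arrays thus lay above the 2 LSK arrays for both probes, and genotypes differed by at most 0.34 within a sort. The difference in SFRP5 stayed past 2-fold in every alternative (1.28 to 1.71), whereas that in WT was 0.87 with quantile normalization and 0.96 with cyclic loess.

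The Hsph1 promoter window is shown because this member was past 2-fold in both genotypes under this scaling and because it holds a heat shock element of 3 units. The window is chr5:149636266-149636565 (GRCm38.p6, minus strand). Capitals mark matches to GAANNTTC and TTCNNGAA, each of which reads the same on both strands, and to overlapping runs of 3 units, in which any 2 letters and a further GAA or TTC follow such a match. Both strands were searched. The element TTCTCGAA starts at -54 from the start of transcription, and TTCTGGAAAGTTC at 16 after it.
Hsph1: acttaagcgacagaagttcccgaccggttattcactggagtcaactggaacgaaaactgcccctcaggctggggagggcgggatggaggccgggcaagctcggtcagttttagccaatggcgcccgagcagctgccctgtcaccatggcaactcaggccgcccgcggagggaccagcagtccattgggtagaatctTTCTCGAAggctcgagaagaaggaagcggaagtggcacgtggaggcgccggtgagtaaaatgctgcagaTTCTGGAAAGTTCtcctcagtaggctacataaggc

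Hspe1 and Hspd1, the co-chaperonin and chaperonin of the mitochondrial matrix, were also higher in CLP in both genotypes. The brightest Hspe1 probe stood at 6.81 in SFRP5 CLP against 5.96 in SFRP5 LSK, and at 7.26 in WT CLP against 5.88 in WT LSK. The differences were 0.85 in SFRP5 and 1.38 in WT, and over all 3 probes from 0.56 to 0.85 in SFRP5 and from 1.26 to 1.38 in WT. Hspd1 stood at 5.09 in SFRP5 CLP against 4.82 in SFRP5 LSK, and at 5.32 in WT CLP against 4.68 in WT LSK. Its differences were 0.27 in SFRP5 and 0.64 in WT. With cyclic loess Hspe1 was at 0.61 in SFRP5 and 0.72 in WT, and Hspd1 at 0.050 and 0.084, and with quantile normalization Hspd1 was at 0.075 and 0.047, within its spot SD. Thus under this scaling both genes ranked the arrays in the same order, WT CLP, SFRP5 CLP, SFRP5 LSK and WT LSK. The brightest Hspa8 probe and the probes of Hsp90aa1 and Hsp90ab1 gave this order too, so it was not particular to the pair. The LSK arrays differed by 0.08 for Hspe1 and 0.14 for Hspd1, near the spot SD of 0.093.

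These 2 genes lie head to head and share a promoter region, which is shown for that reason. The Hspe1 window is chr1:55087898-55088197 on the plus strand of GRCm38.p6, and 285 of its bases are also in a Hspd1 window on the minus strand. Capitals mark a run of 18 bases, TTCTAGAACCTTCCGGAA, from -89 to -72 of the Hspe1 start, which holds every match to the motifs above.
Hspe1: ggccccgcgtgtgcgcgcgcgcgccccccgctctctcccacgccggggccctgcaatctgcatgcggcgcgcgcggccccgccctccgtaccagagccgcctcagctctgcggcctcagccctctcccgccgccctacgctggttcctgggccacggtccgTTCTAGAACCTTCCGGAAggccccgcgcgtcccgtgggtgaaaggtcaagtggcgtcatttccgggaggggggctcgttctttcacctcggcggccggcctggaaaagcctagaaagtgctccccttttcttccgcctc

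Windows were found for 7 of the 10 members (Hspa1a, Hspa1b, Hsph1, Dnajb1, Hspb1, Hspd1 and Hspe1) and not for Hspa8, Hsp90aa1 and Hsp90ab1. A motif of 2 units was present in 6 of the 7 members, all but Dnajb1, and in 15.1% of all 32851 windows. A motif of 3 units was present in 3, Hspd1, Hspe1 and Hsph1, and in 0.603% of all windows. The Hspd1 and Hspe1 matches are the same run of bases, in the stretch that their windows share. The windows of Hspa1a and Hspa1b are near-identical, so the members of either pair are not separate finds. The members had 10 windows, and a member counts where any of its windows matches, whereas the share is per window. In the Hspa1a and Hspa1b windows the match to GAANNTTC starts at -104. A match describes letters in a window and says nothing of binding.

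Of the remaining members, Hspa8 was higher in CLP than in LSK for each probe, by 0.49, 0.38 and 0.20 in SFRP5 and by 1.08, 0.90 and 0.54 in WT. Its probes thus had 1 sign and differed in size by more than the spot SD of 0.083 to 0.091. Hsp90aa1 was higher by 0.36 in SFRP5 and 0.81 in WT, Dnajb1 by 0.38 and 0.64, and Hsp90ab1 by 0.10 and 0.72. In WT Hsp90aa1 was at 0.19 with quantile normalization and Hsp90ab1 at 0.021 with cyclic loess. The Hsp90ab1 difference in SFRP5 turned in sign in 3 of 6 alternatives, down to -0.14, and that of Dnajb1 in WT was -0.02 with cyclic loess. Hspa1a was higher in CLP by 1.83 in SFRP5 (3.54-fold, spot SD 0.35, but 0.63 with normexp) and by 0.13 in WT (spot SD 0.59). The WT value lay within its spot SD and was -0.28 in the authors' deposited table.

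**Figure D3:**
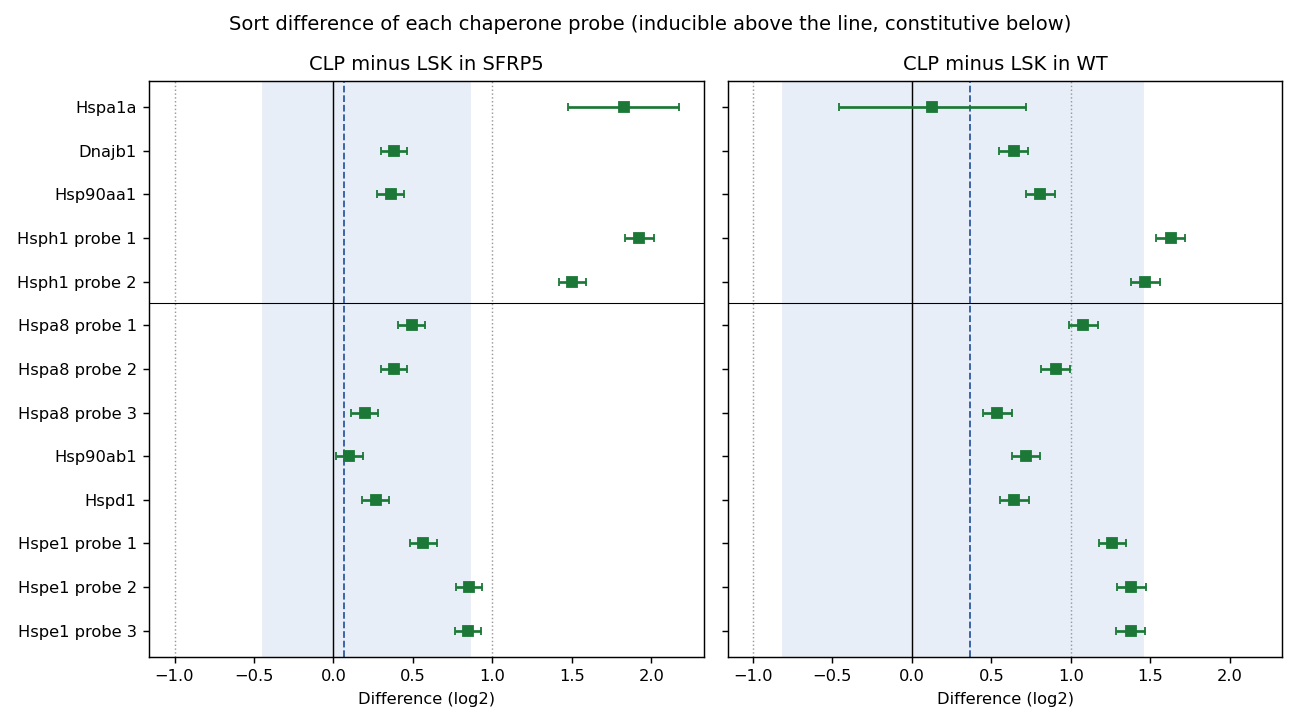
Difference CLP minus LSK (log2, horizontal axis) of each chaperone probe in SFRP5 (left) and WT (right), drawn as in the plot of genotype differences. All 13 probes lie above 0 in both genotypes under this scaling (Hsp90ab1 in SFRP5 and Dnajb1 and Hspa1a in WT fall below 0 under others), and both Hsph1 probes lie beyond 2-fold in both genotypes.

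At 2-fold, 2 of the 8 genes were higher in SFRP5 CLP than in SFRP5 LSK (Hspa1a and Hsph1) and 0 were lower, against 11.5% and 11.0% of all genes. With normexp the count was 1, without Hspa1a. In WT 3 of 8 were higher (Hsph1, Hspe1 and Hspa8) and 0 lower, against 17.8% and 14.3% of all genes. The count in WT was 2 with normexp and with the mean over probes, 1 in the authors' deposited table, and 0 with quantile normalization and with cyclic loess, and Hspa8 was past 2-fold in 1 of 6 alternatives. The authors' scaling moved the median of all genes by -0.41 in WT and by -0.19 in SFRP5. The median of the constitutive members was 0.38 in SFRP5 and 0.90 in WT, against 0.07 and 0.36 over bright genes. Relative to these it was 0.31 in SFRP5 (0.17 to 0.32 over the alternatives) and 0.54 in WT (0.35 to 0.54). For the inducible members it was 0.88 in SFRP5 (0.45 to 0.96) and 0.36 in WT (0.34 to 0.68). The inducible median in SFRP5 fell in a gap between Hspa1a and Hsph1 (1.83 and 1.50) and Dnajb1 and Hsp90aa1 (0.38 and 0.36). It thus rests on Hsph1 and on the dim Hspa1a probe, which lay below the bright level of 4 on every array. Summed signals of the erythroid, mast cell and basophil, myeloid and B lineage markers were higher in CLP in both genotypes. The erythroid list summed to 376 in SFRP5 CLP against 22.0 in SFRP5 LSK, and to 648 in WT CLP against 21.6 in WT LSK. Their part in the chaperone differences was not tested.

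Other genes of the folding machinery were described from lists, under the 75th percentile scaling, with other scalings run for the members only. Their counts at 2-fold stand against the shares of all genes given above, 4.25% higher and 4.31% lower in SFRP5 CLP than in WT CLP, and 6.57% and 7.17% for LSK. Cochaperones, mostly cytosolic, which steer Hsp70 and Hsp90, had 0 of 36 at least 2-fold higher or lower in SFRP5 CLP (median -0.10). In SFRP5 LSK 1 was higher and 2 were lower (median 0.22). These counts use the brightest probe. In CLP the further probes of Dnaja1 and Bag6 gave -1.72 and -1.33, and no further probe was past 2-fold upwards. Dnaja4, an Hsp40, was 4.88-fold higher in SFRP5 LSK and at -0.62 in CLP. Its signal in WT LSK was dim, at -3.73, and only 1 of its 2 probes was measured. In LSK Cdc37l1 was at -1.42 and Dnajb2 at -1.13, but the further Dnajb2 probe gave 0.04. Fkbp4, an Hsp90 partner of steroid receptors, was at 0.69 in LSK and -0.38 in CLP. In the sort comparison 6 of 36 were at least 2-fold higher in SFRP5 CLP and 0 lower (median 0.43), and 12 higher and 1 lower in WT CLP (median 0.69). For all genes the shares were 11.5% higher and 11.0% lower in SFRP5 CLP, and 17.8% and 14.3% in WT CLP.

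The cytosolic chaperonin CCT and its partner prefoldin, which fold actin and tubulin, had no member past 2-fold between genotypes. In SFRP5 CLP 12 of 14 were below WT CLP (median -0.30), and in SFRP5 LSK 12 of 14 were above WT LSK (median 0.39). Over all genes 46.6% lay above 0 in CLP and 51.4% in LSK. Bright genes had medians of -0.15 in CLP and 0.14 in LSK, of the same signs, though many genes of this list were dimmer. Pfdn1 was at -0.86 in CLP and 0.70 in LSK, and Cct7 at -0.44 and 0.74. Between sorts 13 of 14 were higher in CLP in SFRP5 (median 0.57) and 14 of 14 in WT (median 0.95). Over all genes 51.5% and 50.6% were higher, and bright genes had medians of 0.07 and 0.36.

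Mitochondrial chaperones and proteases gave a median of -0.22 in CLP, where 1 of 15 was past 2-fold, downwards, and of 0.24 in LSK, where 2 were, both upwards. Trap1, the mitochondrial Hsp90, was 3.46-fold higher in SFRP5 LSK and at -0.83 in CLP, and the protease subunit Clpp was at -1.03 in CLP. The endoplasmic reticulum list had 0 of 18 genes at 2-fold either way in both sorts, with medians of 0.13 in CLP and 0.14 in LSK. Besides chaperones it holds the transcription factors Ddit3 and Xbp1, at 0.78 and -0.81 in LSK. Pdia4, a disulfide isomerase, was at 0.55 in CLP and 0.98 in LSK. Between sorts 8 of 18 were at least 2-fold higher in SFRP5 CLP (median 0.93) and 10 of 18 in WT CLP (median 1.01), and Sdf2l1 was at 1.97 in SFRP5 and 2.27 in WT. For all genes the medians were 0.024 in SFRP5 and 0.016 in WT, and 11.5% and 17.8% were at least 2-fold higher in CLP.

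Of 7 other Hsp70 and Hsp110 genes, 1 was past 2-fold in SFRP5 CLP, upwards, and 0 in LSK. That gene was Hspa1l, the testis-type Hsp70, at -0.88 in SFRP5 CLP, -2.06 in WT CLP, -1.03 in SFRP5 LSK and -0.91 in WT LSK, so its difference of 1.18 in CLP came with a WT CLP array that was lower than the other 3. Among small heat shock proteins Hspb6 was at -1.51 in CLP and 0.53 in LSK, and Hspb11 at -1.31 in LSK, where its further probe gave 0.34. Cryab, the lens protein alpha-B crystallin, was at -0.055 in CLP, where its dimmer probe gave -0.81, and at 0.090 in LSK. Past 2-fold the list had 1 of 4 genes in CLP and 2 of 6 in LSK, all lower.

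Of the regulators, Hsf1, the master factor of the response, stood at 1.50 in SFRP5 CLP, 1.53 in WT CLP, 0.47 in SFRP5 LSK and 1.57 in WT LSK. It was 2.14-fold lower in SFRP5 LSK and nearly the same in the CLP arrays. Hsbp1, which encodes a protein that binds HSF1, went the other way in LSK, being 2.61-fold higher in SFRP5 LSK and at -0.58 in CLP. Hsf2 was at 0.29 in CLP and -0.14 in LSK, Hsf4 at 0.08 and -0.21, and Hsf5 passed the background flag on 0 arrays. Hsf1 and Hsbp1 were each measured by 1 probe.

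Immediate early genes, which respond quickly to many stimuli, were mostly higher in SFRP5 in both sorts, as the Hspa1a signal was. Of 24 measured in each sort, 11 were at least 2-fold higher and 2 lower in CLP (median 0.92), and 11 and 0 in LSK (median 0.78). Over all genes the shares were 4.25% higher and 4.31% lower in CLP, and 6.57% and 7.17% in LSK. Fosb was 5.77-fold higher in CLP and 7.99-fold in LSK, and Atf3 6.79-fold higher in CLP and at 0.38 in LSK. The summed signal of the list was 288 in SFRP5 CLP and 129 in WT CLP, and 428 in SFRP5 LSK and 187 in WT LSK. Whether the Hspa1a difference belongs with these was not tested.

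**Figure D4:**
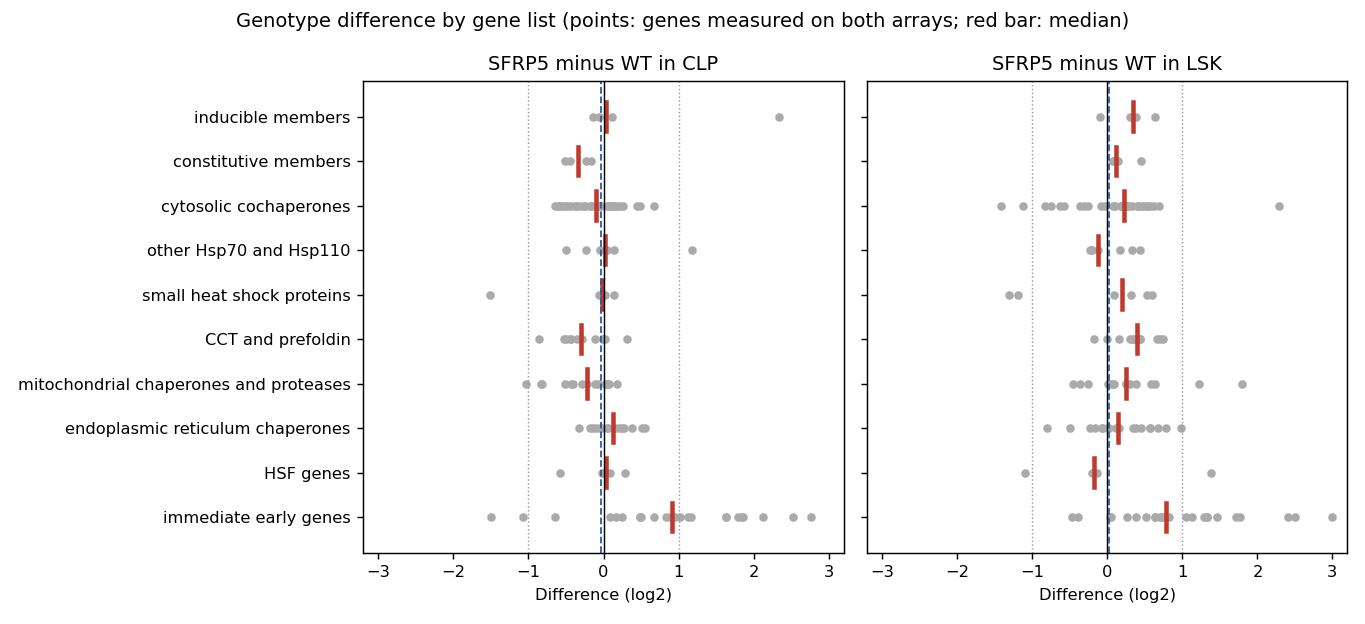
Difference SFRP5 minus WT (log2, horizontal axis) of the genes of 10 lists in CLP (left) and LSK (right). Points are genes above background on both arrays, red bars list medians, the dashed line the median of all genes, and dotted lines 2-fold. CCT and prefoldin lie mostly below 0 in CLP and above 0 in LSK, the sides of the bright gene medians (-0.15 and 0.14). Immediate early genes reach from -1.50 to 2.76 in CLP.

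Profiles most like that of Hspa1a over the 4 arrays were sought among 9076 genes by the root mean square distance of centred log2 values. Candidates were genes above background on all 4 arrays that reached the 75th percentile on any array. Hspa1a, at -2.01 on its brightest array (SFRP5 CLP), is not such a gene, so genes as dim as it were not searched. Among the candidates the nearest were Cd69 (0.32), Tsc2 (0.36), Tnfaip3 (0.38), Fam203a (0.38) and Esrra (0.39), none within 0.2. Cd69, an activation antigen of lymphocytes, had differences of 1.82 in CLP and 1.24 in LSK, and Tnfaip3, an inhibitor of NF-kB signalling, 1.28 and 0.54. Around Hspd1, 1420 of 9075 genes lay within 0.2, the nearest being Gpr45 (0.019), Fer1l6 (0.019), Acsl4 (0.021), Riok3 (0.025) and Gm13194 (0.030). The counts are not comparable between the 2 members, since the spot SDs of Hspa1a, from 0.14 to 0.46, exceed that distance on 3 of 4 arrays.

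**Figure D5:**
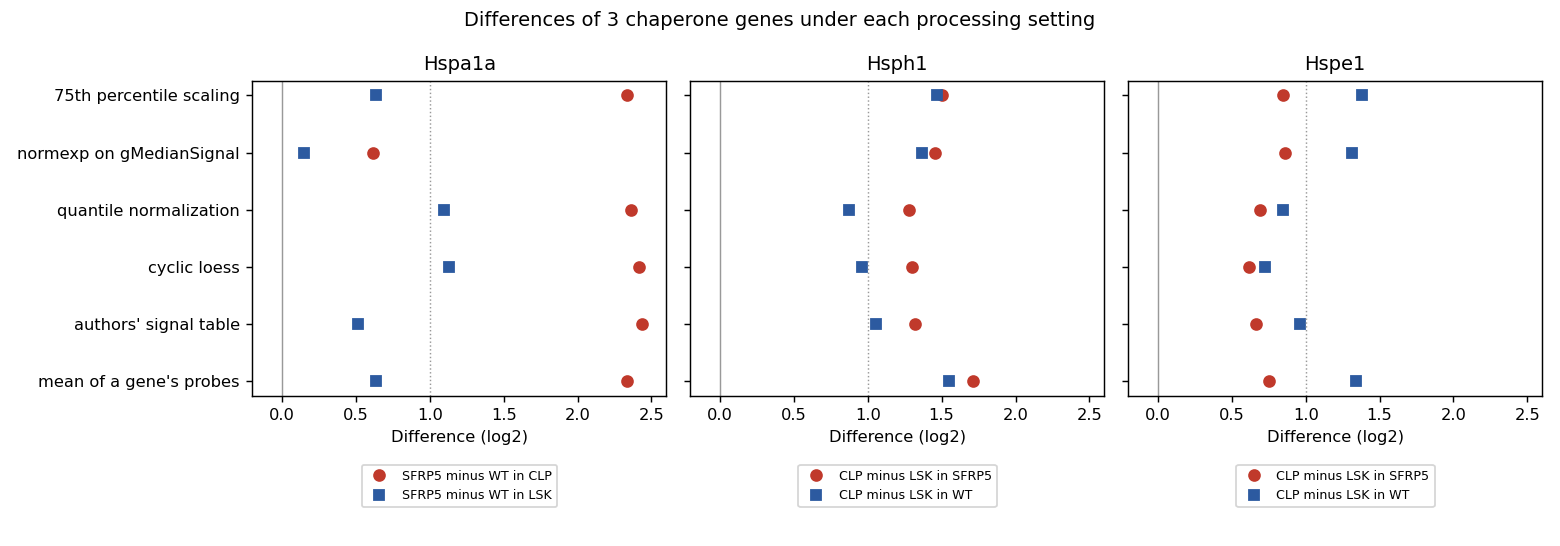
Differences (log2, horizontal axis) of Hspa1a between genotypes and of Hsph1 and Hspe1 between sorts, each under the 75th percentile scaling and 5 alternatives (vertical axis). The dotted line marks 2-fold. Hspa1a in CLP is at 0.61 with normexp and from 2.34 to 2.43 otherwise, and Hsph1 in SFRP5 is past 2-fold throughout.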

How the data were processed

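RNA of 4 sorted samples was hybridised in 1 colour. Per the labels' protocols, whole-transcriptome amplification of 6.1 ng total RNA gave the Cy3 cDNA. Deposited spot intensities were background-subtracted and detrended in Agilent Feature Extraction 10.10.1.1 on an mm9 design, per the file headers, a version given as 10.10 in the submitters' processing notes. In the authors' deposited table each intensity is multiplied by 1 factor an array (4.91 to 6.42). Here log2 intensities minus the 75th percentile of each array (227.2 to 290.9) were used. Outlier spots were dropped, replicate spots averaged, and the brightest probe taken for a gene. A gene was measured where well above background on both arrays. Differences were counted at 2-fold in 4 comparisons without a test. The spot SD is the median over the 40 replicated probes nearest in signal, each with at least 3 spots. The signals of some chaperones exceed all of these. Of 140 list entries 139 were on the array. Named genes are all members, sort genes and HSF genes, and those among the 2 highest and 2 lowest of each list per genotype comparison, and the 5 nearest profiles. Members and lists were chosen with earlier results of these data known. Alternatives were normexp, quantile normalization and cyclic loess (limma 3.58.1, R 4.3.3), the authors' table, a filter on all 4 arrays and the mean of a gene's probes. Code was tested on simulated data. The number of arrays limits the precision.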

Additional observations from a re-analysis of the deposited data

Results flagged for a closer look

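For 5 members the genotype difference had opposite signs in the sorts, which was not tested and rests on 1 array per group. The difference in CLP minus that in LSK was -0.59 for Hspa8 (-0.51 in CLP and 0.08 in LSK), -0.45 for Hsp90aa1 (-0.14 and 0.31), -0.62 for Hsp90ab1 (-0.17 and 0.45), -0.38 for Hspd1 (-0.23 and 0.14) and -0.53 for Hspe1 (-0.45 and 0.08). Under other scalings the CLP difference of Hsp90aa1 and Hsp90ab1 and the LSK difference of Hspa8, Hspd1 and Hspe1 changed sign, so the opposition holds for none of the 5 in all alternatives. The contrast of Hspd1 was itself above 0 with quantile normalization (0.028). Bright genes had a median of -0.23 for the same quantity.

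A probe without a gene symbol, described in the deposited annotation as the heat shock protein HSP27, lies outside the members although Hspb1 encodes the mouse form of that protein. It was noticed after its values were seen. It was well above background on all 4 arrays, at -2.75 in SFRP5 CLP, -2.30 in WT CLP, -2.40 in SFRP5 LSK and -1.96 in WT LSK, whereas the Hspb1 probe passed that flag on 0 arrays. Its difference between genotypes was -0.45 in CLP (spot SD 0.22) and -0.45 in LSK (spot SD 0.18). Which transcript it detects was not tested.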

How the results depend on the processing

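Of 32 differences of single members (8 genes in 4 comparisons), 23 kept their sign and 26 their side of 2-fold in all 6 alternatives. The count at 2-fold was 0 in CLP between genotypes with normexp, 1 in LSK with quantile normalization and with cyclic loess, 1 in SFRP5 between sorts with normexp, and in WT 2 with normexp and when probes were averaged, 1 in the authors' table and 0 with quantile normalization and with cyclic loess. In the order authors' table, cyclic loess and quantile normalization, the inducible median was 0.13, 0.18 and 0.23 between genotypes in CLP, 0.21, 0.13 and 0.17 in LSK, 0.76, 0.72 and 0.76 between sorts in SFRP5, and 0.31, 0.43 and 0.38 in WT. The constitutive median was -0.24, -0.18 and -0.13 in CLP, -0.017, -0.10 and -0.063 in LSK, 0.19, 0.16 and 0.18 between sorts in SFRP5, and 0.48, 0.28 and 0.37 in WT. With normexp the inducible median was 0.23 in LSK and 0.52 between sorts in SFRP5, and the constitutive median -0.18 in CLP, 0.23 between sorts in SFRP5 and 0.66 in WT. When probes were averaged per gene, the inducible median was 1.05 between sorts in SFRP5 and the constitutive one 0.78 in WT. The filter on all 4 arrays left the medians as they were, since the same 8 genes pass it. The planned normexp on mean spot signals was not run, and median spot signals, chosen after seeing the data, took their place. The causes were not tested. Low signal over background limits Hspa1a and Hspb1. Pairing by replicate number was not possible because the groups compared share only replicate number 1. A fit of genotype with the sort as a block would leave 1 residual degree of freedom and, though possible, was not run.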
